A study of Rattus norvegicus with 6 samples.

Results

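The chemokine genes examined here encode the secreted ligands of the CC, CXC and CX3C classes and the atypical chemokine receptors, taken as every gene whose symbol begins with Ccl or Cxcl and a number, or is Cx3cl1, Xcl1 or Ackr with a digit. There were 31 such genes among the 22085 of the deposited table, 28 ligands and 3 atypical receptors. They were measured by RNA sequencing in cells grown out of rat amniotic fluid, a mixed population shed by the fetus and its membranes, which the labels call mesenchymal stem cells. Fluid was taken at embryonic day 18.5 from 3 control pregnancies and from rats modelling preeclampsia, a hypertensive disorder of pregnancy (3 libraries), and all cells were grown in the same serum-containing medium and sequenced at passage 4. Values per library are listed throughout in the order of replicates 1, 2 and 3. The sources used here do not give the rat strain, how the model was induced or whether fluid of several fetuses or dams was pooled, so p-values measure the spread between these libraries.

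Chemokines are small secreted proteins that bind glycosaminoglycans on cell surfaces and matrix and draw leukocytes along their gradients through G protein-coupled receptors. Inflammatory members are induced through NF-kB and AP-1, or through interferons, while others, such as Cxcl12, are made constitutively by stromal cells. Atypical receptors bind chemokines without G protein signalling and remove or redistribute them. In the pregnant uterus and fetal membranes chemokines are known for recruiting leukocytes.

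The libraries held 48402185 to 59193961 counts and differed in cell type markers within the groups as well as between them. Mesenchymal genes were high in all 6 libraries, Vim at 341 to 576 FPKM and Col1a1 at 1900 to 4271 FPKM. FPKM is the authors' unit, scaled by transcript length and sequencing depth and meant to make genes comparable. Its relation to the counts varied by gene. In control library 1, Ccl2 had 9933 counts at 434 FPKM and Cxcl1 had 7303 counts at 23.7 FPKM. The gene models of Ccl2 and Cxcl1 are of similar length, so levels of different genes are compared with less certainty. All 15 genes of a macrophage list were tested, all with a log2 fold change above 0 and none with an unadjusted p under 0.05, and their summed level was 153, 129 and 27.4 FPKM in the control group and 30.9, 451 and 221 FPKM in the preeclampsia group. The complement gene C1qa, of that list, was listed at 0 in control library 3. Genes of the G2 and M phases summed to 341 FPKM in preeclampsia library 1 and to 70.8 to 176 FPKM in the other 5. The lymphocyte genes Cd79a and Nkg7 did not exceed 0.08 FPKM in any library, and the 3 neutrophil genes in the table summed to 0 to 0.05 FPKM in control and 0.06 to 0.52 FPKM in preeclampsia libraries. The mesothelial gene Msln (1.06 to 2.03 FPKM in control, 11.8 to 20.9 in preeclampsia) and the fibroblast receptor gene Pdgfra (97.7 to 116 and 225 to 411) did not overlap between the groups, and neither did the epithelial keratin gene Krt18 (0.48 to 17.2 FPKM in control, 0 to 0.20 in preeclampsia). Msln and Pdgfra do not stand for their lists. The other 3 mesothelial genes, Upk3b, Wt1 and Lrrn4, overlapped and had log2 fold changes of -1.31, -0.19 and -0.55. Of the 9 mesenchymal genes 6 had a log2 fold change above 0 and 3 (Cd44, Eng and Pdgfrb) below 0. Krt8, the other epithelial gene tested, had a log2 fold change of -3.90, beside -6.29 for Krt18, but overlapped between the groups. Epcam, Cdh1 and Krt19 were not tested. The part of these cell type differences in the chemokine results was not tested, except where values below bear on it. In bulk RNA, fewer cells of a type and less RNA per cell cannot be told apart.

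The comparison of preeclampsia with control cells asked which chemokine genes differed between the groups. The eosinophil chemokine gene Ccl11 (eotaxin) had the smallest unadjusted p, with a mean in the preeclampsia group 17.4 times that of control, and the atypical receptor gene Ackr4 (2.31 times) and the neutrophil chemokine gene Cxcl3 (3.62 times) followed in the order of p. The abundant stromal and monocyte chemokine genes Cxcl12, Ccl2 and Ccl7 differed by less than their spread. By edgeR's quasi-likelihood test none of the 23 members tested was called at an adjusted p under 0.05, as for all 15776 genes tested (0%). An unadjusted p under 0.05 was reached by 3 of the 23 members (13.0%), Ccl11, Ackr4 and Cxcl3, against 9.19% of all tested genes; all 3 were higher in preeclampsia, against 4.13% of all genes, and none lower, against 5.06%. DESeq2 called 1 of the 25 members to which it gave an adjusted p, Ccl11, against 1.71% of all genes. The FPKM values of the groups did not overlap in 2 members, Ccl11 and Ackr4, or 8.70%, against 14.5% of all tested genes, both higher (6.15% of all genes) and none lower (8.32%). With both directions counted together, the shares of members by unadjusted p and by overlap lie near or below those of all genes, and each rests on 2 or 3 genes. The log2 fold change, preeclampsia over control, was above 0 in 16 of the 23 members and below 0 in 7, with a median of 0.25, beside 51.7% above 0 and a median of 0.01 over all tested genes. Single libraries moved these values: the median was 0.145 without preeclampsia library 2 and 0.65 without control library 2, and 13 of 23 members were above 0 without control library 1. Genes pass the filter through the libraries in which they are high, so these counts describe the tested members and not all 31.

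**Figure D1:**
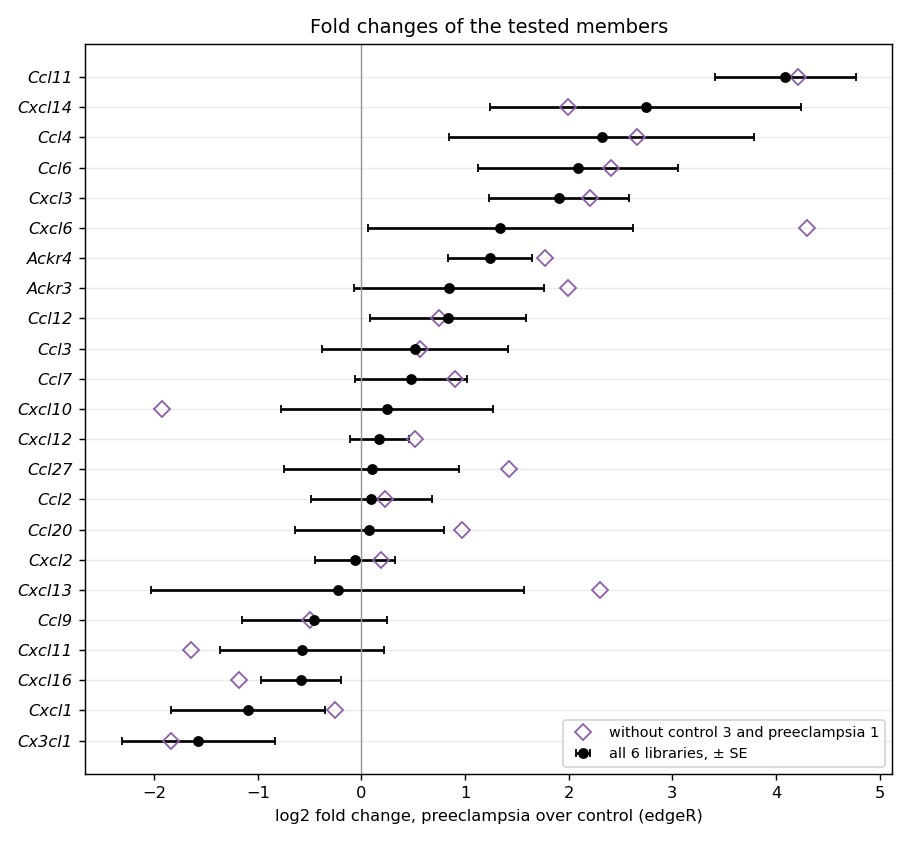
Log2 fold change of each of the 23 tested members, preeclampsia over control, from edgeR (points, with bars of 1 standard error). Open diamonds give the same value without control library 3 and preeclampsia library 1. These were left out after the data were seen, because their macrophage markers were lowest. Ccl11 lies farthest from 0, at 4.09, and is at 4.21 without those libraries, while Cxcl6 goes from 1.34 to 4.30 and Cxcl10 from 0.25 to -1.92.

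By FPKM, chemokine expression in these cells was dominated by a few genes. Cxcl12, the ligand of Cxcr4 and Ackr3, had a mean of 1721 FPKM over the 6 libraries, and Ccl2 (monocyte chemoattractant protein) 1231 FPKM. Next came Cxcl6 at 203, Ccl7 at 149, Ackr3 at 59.5, Cxcl1 at 49.6, Ccl20 at 41.7, Cxcl3 at 36.4 and Cxcl16 at 20.8 FPKM. Each gene in this order overlapped the next in its range over libraries. Cxcl12, Ccl2, Ccl7 and Cxcl6 together made up 92.2% to 96.2% of the summed FPKM of all members in each library. This share and the order of genes rest on FPKM being comparable between genes, which the counts make less certain. A further 6 members had a mean of 1 to 10 FPKM, and 16 had a mean under 1 FPKM. Of these 16, Ccl22 and Ccl28 had no count in any library. A count of 0 allows up to 3 counts, or a CPM of 0.051 to 0.062 (counting error only). That limit holds only if each count is a single fragment, which is uncertain here.

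**Figure D2:**
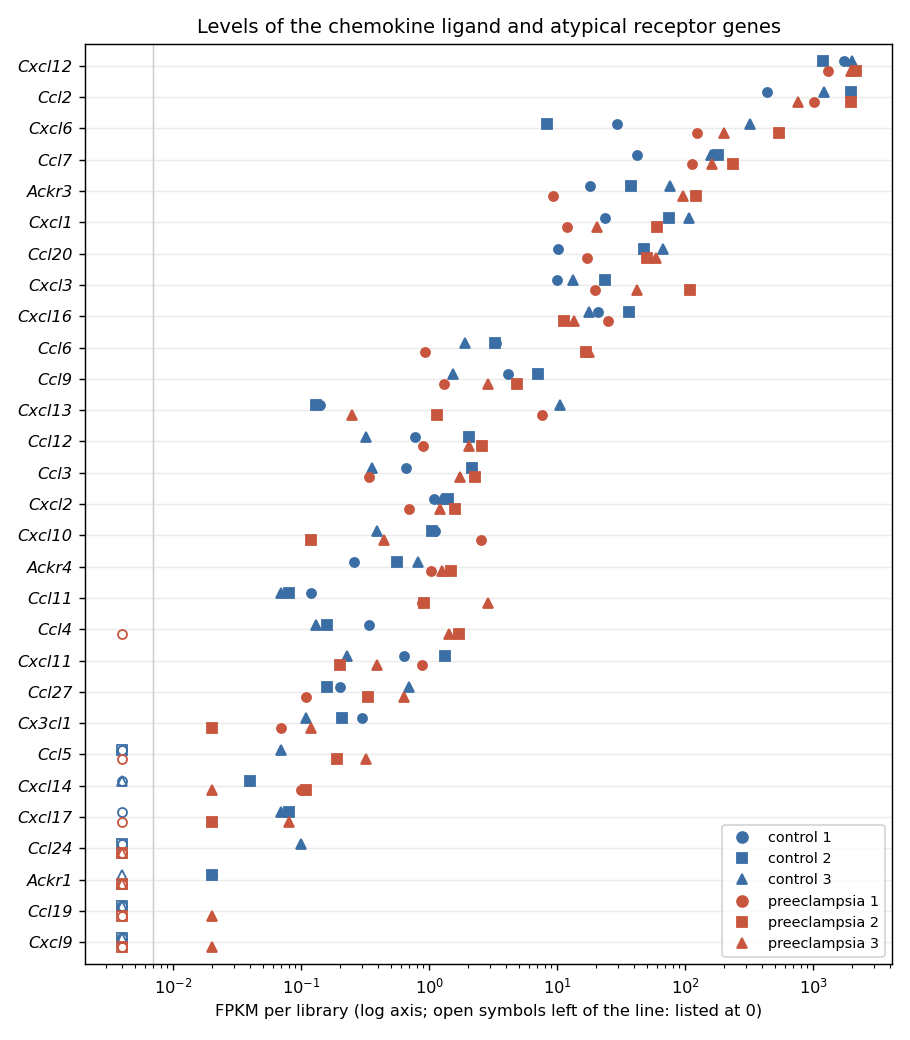
FPKM (log axis) of the 29 members with a count in any library, in control libraries (blue) and preeclampsia libraries (red), ordered by their mean. Levels span from 1191 to 2146 FPKM for Cxcl12 to values listed at 0, and the groups separate only for Ccl11 and Ackr4 among the tested members.

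Ccl11, the ligand that draws eosinophils through Ccr3, lies on chromosome 10 (67028328 to 67032929 in the table's coordinates, for which the sources used here name no build). It stood at 0.12, 0.08 and 0.07 FPKM (12, 8 and 7 counts) in the control group and at 0.88, 0.91 and 2.90 FPKM (89, 104 and 272 counts) in the preeclampsia group. Every preeclampsia library was above every control library, preeclampsia library 3 by the most. The means were 0.090 ± 0.026 and 1.56 ± 1.16 FPKM (SD, n = 3 each). The log2 fold change was 4.09 (SE 0.68), with an unadjusted p of 0.000767 and an adjusted p of 0.313 by edgeR, and an adjusted p of 3.1e-06 by DESeq2. When 1 library at a time was left out, the log2 fold change ranged from 3.28 to 4.41. Preeclampsia library 1, with summed macrophage markers of 30.9 FPKM, and control library 3, with 27.4, stood at 0.88 and 0.07 FPKM of Ccl11, and the part of the macrophage content in the Ccl11 difference was not tested. These levels are low: Ccl11 reached at most 2.90 FPKM, and its receptor gene Ccr3 was listed at 0 in 5 libraries. The control counts of 7 to 12 are so low that they may not be single fragments. The size of the Ccl11 difference is therefore less certain than its SE. A long noncoding RNA gene, LOC120095154, overlaps Ccl11, Ccl7 and Ccl12 on the other strand, and it was listed at 0 in all libraries except control library 2, at 0.31 FPKM. The other eosinophil ligand gene in the table, Ccl24, had 4 counts in control library 3 and 0 in the other 5.

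The neighbours of Ccl11 on the chromosome overlapped between the groups. Ccl2, Ccl7, Ccl11 and Ccl12 lie in this order on chromosome 10, with 9.22 kb between Ccl2 and Ccl7, 10.0 kb between Ccl7 and Ccl11 and 37.3 kb between Ccl11 and Ccl12. Ccl2 stood at 434, 1986 and 1212 FPKM in the control group and at 1021, 1968 and 766 FPKM in the preeclampsia group. The groups overlapped fully, and control libraries 1 and 2 alone differed 4.58-fold. Its log2 fold change was 0.10 (SE 0.59, edgeR adjusted p = 0.974), and its sign depended on single libraries, being -0.29 without control library 1 and -0.43 without preeclampsia library 2. Ccl7, which acts with Ccl2 on the monocyte receptor Ccr2, stood at 42.2, 180 and 159 FPKM in control and at 113, 237 and 163 FPKM in preeclampsia libraries. Control library 1 was the lowest for both genes, and Ccl2 exceeded Ccl7 by 4.70 to 11.0 times in every library. For Ccl7 the log2 fold change was 0.48 (SE 0.54, adjusted p = 0.85), and 0.075 without control library 1. Ccl12, another Ccr2 ligand, ranged from 0.32 to 2.04 FPKM in control and from 0.89 to 2.58 FPKM in preeclampsia libraries (0.83, SE 0.75, adjusted p = 0.81), with 1.73 without control library 2 and 0.41 without control library 3. These 3 genes thus differed by less than the spread between libraries.

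**Figure D3:**
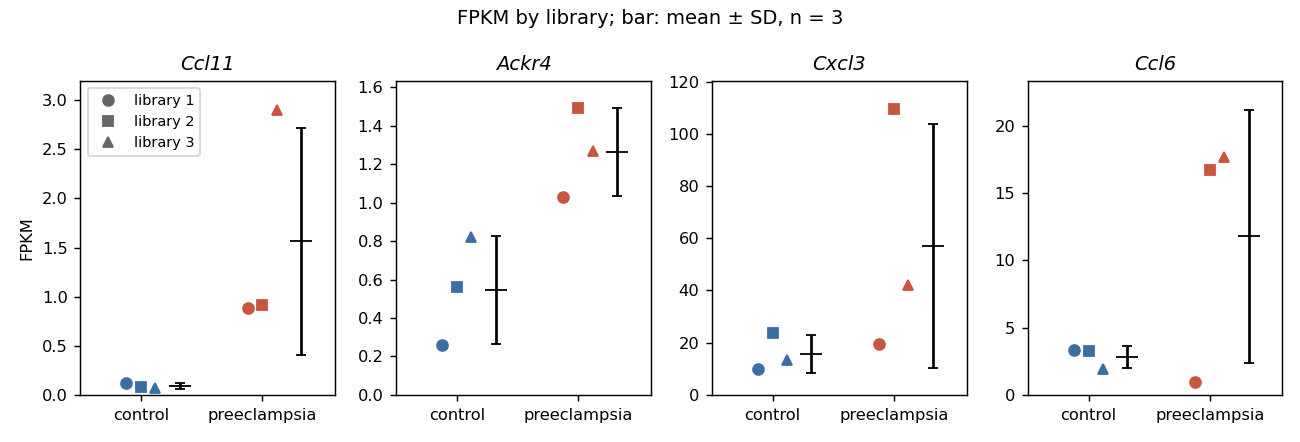
FPKM per library of Ccl11, Ackr4, Cxcl3 and Ccl6 in the control and preeclampsia groups, with the mean and SD beside the 3 libraries of each group. Ccl11 and Ackr4 do not overlap between the groups, Cxcl3 overlaps through preeclampsia library 1 (19.6 FPKM) and control library 2 (23.8 FPKM), and Ccl6 splits the preeclampsia group, with library 1 at 0.93 FPKM.

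The neutrophil-attracting CXC ligands were represented by Cxcl1, Cxcl2, Cxcl3 and Cxcl6, which act through Cxcr2 and lie together on chromosome 14, between 17181030 and 17312303 in the table's coordinates. Their fold changes differed in sign: the mean of Cxcl3 was 3.62 times that of control in the preeclampsia group, while the mean of Cxcl1 was 0.448 times that of control. Cxcl3 stood at 10.0, 23.8 and 13.4 FPKM in the control group and at 19.6, 109 and 42.2 FPKM in the preeclampsia group. Preeclampsia libraries 2 and 3 were above all control libraries and library 1 was not. Its log2 fold change was 1.91 (SE 0.68), with an unadjusted p of 0.0286 and an adjusted p of 0.478 by edgeR and an adjusted p of 0.0806 by DESeq2. Without preeclampsia library 2 it was 0.99. Cxcl1 stood at 23.7, 75.3 and 106 FPKM in control and at 11.9, 59.7 and 20.4 FPKM in preeclampsia libraries, with overlapping groups (-1.09, SE 0.75, adjusted p = 0.731). That value depended on single libraries, being -0.65 without control library 3 and -2.06 without preeclampsia library 2. Of the 4, Cxcl6 spread most, at 29.2, 8.36 and 320 FPKM in control and 123, 535 and 201 FPKM in preeclampsia libraries. Control library 3 alone brought the groups to overlap: the log2 fold change was 1.34 (SE 1.28, adjusted p = 0.823), and 3.93 without that library (unadjusted p = 0.00851, adjusted p = 0.344). Without preeclampsia library 2 it was 0.48. Cxcl2, with the lowest level of the 4, lay between 0.70 and 1.59 FPKM in all libraries (-0.07, SE 0.39, adjusted p = 0.973). Members of this family resemble each other in sequence, and the sources used here do not say how reads that match several of them were assigned, which makes their separate values less certain.

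Of the 6 ratios among these 4 genes, 3 did not overlap between the groups. The ratio of Cxcl6 to Cxcl1 was 1.23, 0.111 and 3.01 in the control group and 10.4, 8.95 and 9.87 in the preeclampsia group. The ratio of Cxcl3 to Cxcl1 was 0.423, 0.316 and 0.126 in control and 1.65, 1.83 and 2.07 in preeclampsia libraries. In both ratios the groups were apart. By FPKM Cxcl1 exceeded Cxcl3 in every control library and in no preeclampsia library. By counts, not scaled by length, Cxcl1 exceeded Cxcl3 in the preeclampsia libraries too (3833, 22018 and 6131 against 1169, 7463 and 2349). Which of these genes was higher in preeclampsia libraries thus depended on the measure. The third, Cxcl3 to Cxcl2, was 9.13, 17.0 and 10.7 in control and 28.0, 68.8 and 34.9 in preeclampsia libraries, while Cxcl2 to Cxcl1, Cxcl6 to Cxcl2 and Cxcl6 to Cxcl3 overlapped. An exact two-sided permutation test on the log2 ratio gave 0.1 for each of the 3 (0.2 adjusted over the 6 ratios among the 4 genes). That is the smallest p that 3 against 3 allows. It follows from groups that do not overlap, so the test adds nothing to the separation. These ratios were singled out after their values were seen. Among all 36 pairs of the 9 members with a mean of at least 10 FPKM, 7 ratios (19.4%) did not overlap. The share was 17.7% among the pairs of all tested genes at that level, so a separated ratio is common in these libraries. Cxcl2, with a mean of 1.21 FPKM, was not among the 9, so its ratios have no such share beside them.

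**Figure D4:**
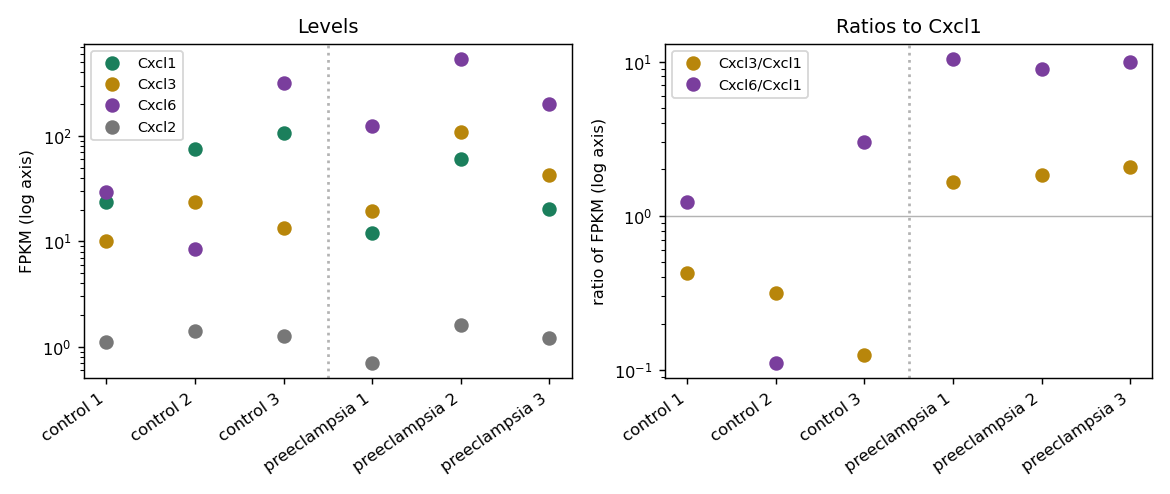
Left, FPKM (log axis) of Cxcl1, Cxcl2, Cxcl3 and Cxcl6 in each library; right, the ratios of Cxcl3 and Cxcl6 to Cxcl1 (log axis). Levels vary widely within the groups, while the ratios of Cxcl6 to Cxcl1 lie between 8.95 and 10.4 in the 3 preeclampsia libraries and at or below 3.01 in the controls.

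The promoters of 3 of these genes are shown because they sit in a single cluster, hold the same kind of element and differed in level. Each line gives the 150 bases before the annotated start in RefSeq's GRCr8 annotation, on the gene's strand, with matches to the kappa B motif (GGG and TTTCC with any 2 bases between them), searched on both strands, in capitals. The windows are chr14:17479322-17479471 for Cxcl1, chr14:17467256-17467405 for Cxcl2 and chr14:17596418-17596567 for Cxcl6, all on the minus strand.
Cxcl1: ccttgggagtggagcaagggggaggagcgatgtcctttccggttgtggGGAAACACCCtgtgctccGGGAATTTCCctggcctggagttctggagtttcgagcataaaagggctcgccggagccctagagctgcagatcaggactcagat
Cxcl2: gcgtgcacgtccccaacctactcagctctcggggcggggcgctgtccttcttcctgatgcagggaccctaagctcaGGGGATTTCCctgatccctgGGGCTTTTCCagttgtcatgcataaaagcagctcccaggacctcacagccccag
Cxcl6: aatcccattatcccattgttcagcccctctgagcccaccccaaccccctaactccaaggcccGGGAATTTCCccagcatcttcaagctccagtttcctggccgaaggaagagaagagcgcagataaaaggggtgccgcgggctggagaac
Cxcl1 and Cxcl6 held the identical element GGGAATTTCC, beginning 84 and 88 bases before the start. Cxcl1 held a further match, GGAAACACCC, 102 bases before the start, and Cxcl2 held 2 others, GGGGATTTCC and GGGCTTTTCC, 74 and 54 bases before it. Of the 31 members 24 had a promoter sequence available. Cxcl3, Ccl11, Ccl2, Ccl3, Ccl4, Ccl5 and Ackr1 had none and were not searched. Of the 24, 5 held the kappa B motif between 250 bases before and 50 after the start, the other 2 being Ccl20 and Ccl9. The motif was in 1.53% of all 33469 promoters of the same length. The AP-1 motif TGANTCA was in 4 of the 24 (Ccl7, Cxcl10, Cxcl11 and Cxcl14) against 7.33% of all promoters, and the interferon response motif (GAAA, any 2 bases, GAAA) in 2 (Cxcl10 and Ccl19) against 3.92%. None of the 3 genes printed held a match to the other two motifs. A match describes these letters only. Cxcl6 varied 64.0-fold between libraries and Cxcl2 2.27-fold, and both carried a match.

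Among the constitutive and tissue CXC ligands Cxcl12 varied least. It stood at 1724, 1191 and 1995 FPKM in the control group and at 1309, 2146 and 1961 FPKM in the preeclampsia group, a 1.80-fold range. Its log2 fold change was 0.17 (SE 0.28, edgeR adjusted p = 0.90), with overlapping groups, and -0.019 without control library 2. Cxcl16, a ligand made as a transmembrane protein and shed by proteases, stood at 20.7, 36.6 and 17.7 FPKM in control and at 25.1, 11.2 and 13.4 FPKM in preeclampsia libraries (-0.58, SE 0.38, adjusted p = 0.721). Preeclampsia libraries 2 and 3 were below every control and library 1 was not, the log2 fold change being -0.97 without preeclampsia library 1 and -0.21 without control library 2. Cxcl13, a B cell-attracting ligand, was at 10.5 FPKM in control library 3 and 7.66 FPKM in preeclampsia library 1. In the other 4 libraries it was between 0.13 and 1.15 FPKM, so that the 2 libraries with the lowest macrophage markers had the most Cxcl13, across the groups. Cxcl14 did not exceed 0.11 FPKM and Cxcl17 did not exceed 0.08 FPKM.

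The interferon-induced ligands of Cxcr3 were low. Cxcl10 lay between 0.39 and 1.12 FPKM in control libraries and stood at 2.55, 0.12 and 0.44 FPKM in the preeclampsia group. Preeclampsia library 1 was the highest of the 6 and library 2 the lowest. Between the groups its log2 fold change was 0.25 (SE 1.02, adjusted p = 0.962), and -1.57 without preeclampsia library 1. Cxcl11 ranged from 0.20 to 1.33 FPKM over the 6 libraries, and Cxcl9 had 2 counts in preeclampsia library 3 and none elsewhere.

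The 4 tested macrophage inflammatory CC ligands were lowest in the 2 libraries with the least macrophage marker RNA, 1 in each group. Ccl6, a CC ligand of rodent myeloid cells, stood at 3.35, 3.26 and 1.9 FPKM in the control group and at 0.93, 16.7 and 17.7 FPKM in the preeclampsia group. Preeclampsia libraries 2 and 3 were far above all others, and library 1 was the lowest of the 6. The log2 fold change was 2.09 (SE 0.97, unadjusted p = 0.0712, adjusted p = 0.591 by edgeR), and 2.64 without preeclampsia library 1 (adjusted p = 0.121). Ccl4 stood at 0.34, 0.16 and 0.13 FPKM in control and at 0, 1.72 and 1.42 FPKM in preeclampsia libraries. Its count of 0 allows up to 0.042 FPKM if each count is a single fragment, which is uncertain here. Ccl3, a ligand of Ccr1, was at 0.66, 2.16 and 0.36 FPKM in control and 0.34, 2.30 and 1.75 FPKM in preeclampsia libraries, lowest in control library 3 and preeclampsia library 1. Ccl9 was at 4.16, 7.13 and 1.53 FPKM in control and 1.31, 4.88 and 2.90 FPKM in preeclampsia libraries. For Ccl3, Ccl4, Ccl6 and Ccl9 alike, control library 3 and preeclampsia library 1 were the 2 lowest. Ccl5 had at most 11 counts in any library and was not tested. The part of the macrophage content in these values was not tested.

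**Figure D5:**
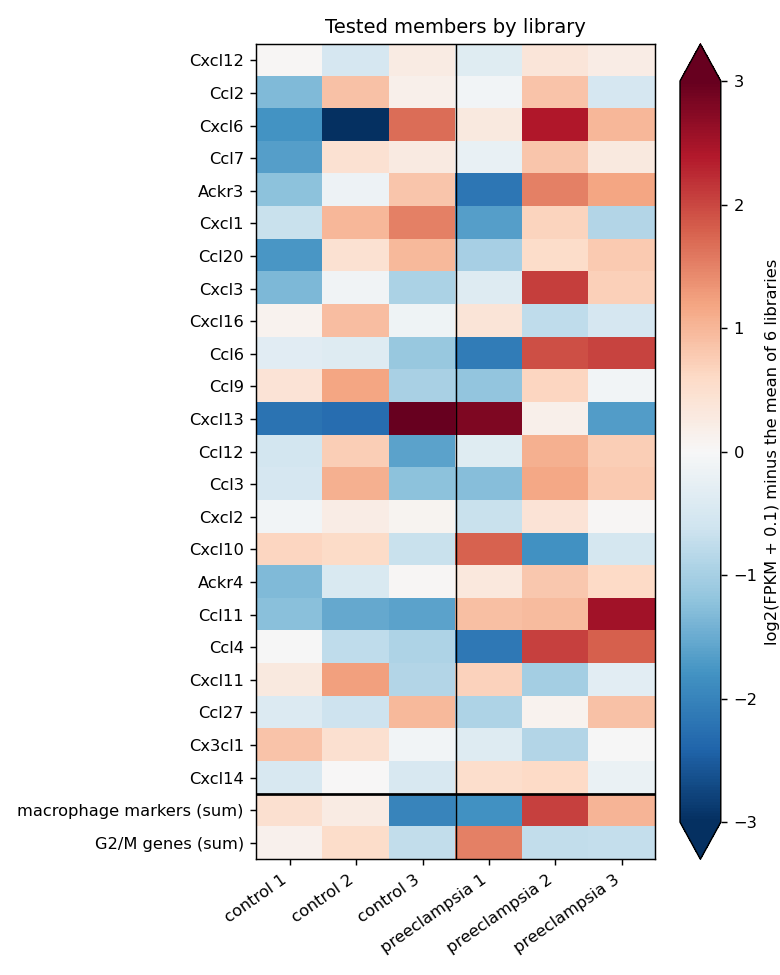
Level of the 23 tested members in each library as log2(FPKM + 0.1) minus the mean of the 6 libraries (color, limited to -3 to 3), above the summed macrophage markers and the summed G2 and M phase genes on the same scale. Ccl3, Ccl4, Ccl6 and Ccl9 are low in control library 3 and preeclampsia library 1, where macrophage markers are low and Cxcl13 is high.

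Of the lymphocyte-attracting CC ligands only Ccl20, the ligand of Ccr6, was abundant. It stood at 10.1, 47.4 and 67.0 FPKM in the control group and at 17.0, 50.2 and 58.7 FPKM in the preeclampsia group. Library 1 of each group was the lowest, and the groups overlapped (0.08, SE 0.72, adjusted p = 0.981). The sign changed to -0.38, -0.09 and -0.24 without control library 1, preeclampsia library 2 or preeclampsia library 3. Ccl27 did not exceed 0.69 FPKM and overlaps Il11ra1 on the other strand, which was at 13.2 to 17.4 FPKM. The strand setting of the libraries is not stated in the sources used here, so reads of such overlapping genes cannot be told apart. Ccl19 had 2 counts in preeclampsia library 3 and none in the others. Cx3cl1, the membrane-bound ligand of Cx3cr1, stood at 0.30, 0.21 and 0.11 FPKM in control and at 0.07, 0.02 and 0.12 FPKM in preeclampsia libraries (-1.57, SE 0.74, unadjusted p = 0.0737, adjusted p = 0.598). Control library 3 lay just below preeclampsia library 3.

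Both atypical receptor genes tested had a log2 fold change above 0. Ackr3, which takes up Cxcl12 and so limits the ligand available to Cxcr4, stood at 18.0, 37.9 and 75.7 FPKM in the control group and at 9.33, 121 and 95.2 FPKM in the preeclampsia group. Preeclampsia library 1 was the lowest of the 6 and the other two preeclampsia libraries the highest. The log2 fold change was 0.84 (SE 0.92, adjusted p = 0.845), with 1.37 and 0.30 without preeclampsia library 1 and preeclampsia library 2. Ackr4, which takes up Ccl19, Ccl21 and Ccl25, stood at 0.26, 0.56 and 0.82 FPKM in control and at 1.03, 1.49 and 1.27 FPKM in preeclampsia libraries, without overlap. The means were 0.547 ± 0.280 and 1.26 ± 0.230 FPKM (SD, n = 3 each). The log2 fold change was 1.24 (SE 0.41), with an unadjusted p of 0.0213 and an adjusted p of 0.473 by edgeR, and an adjusted p of 0.130 by DESeq2. Ackr4 overlaps Acad11 on the other strand, a gene at 1.54 to 2.88 FPKM with a log2 fold change of -0.35, the opposite sign. Of the ligands of Ackr4 named here, Ccl19 was the one in the table, at 2 counts in all. Ackr1 had at most 6 counts in a library and was not tested.

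The signalling receptors of these ligands were mostly at or near 0. Of the 15 genes listed as such receptors in the data, 7 were tested and 12 stayed under 1 FPKM in every library. Both counts include Ccrl2 (log2 fold change 0.25), which is usually counted as nonsignalling. EdgeR and DESeq2 called none of the list, and none had an unadjusted p under 0.05. Cxcr4, the signalling receptor of Cxcl12, was at 2.34, 1.46 and 0.38 FPKM in control and 0.24, 4.68 and 2.15 FPKM in preeclampsia libraries (0.78, SE 1.07, edgeR adjusted p = 0.874), low in the same 2 libraries as the macrophage markers. Ackr3 exceeded it in all 6. Ccr1, a receptor of Ccl3 and Ccl7, lay between 1.28 and 3.42 FPKM (0.23, SE 0.48, adjusted p = 0.92). Ccr2 did not exceed 0.03 FPKM and Cxcr2 was listed at 0 in 5 libraries, so that the main receptor genes for Ccl2 and for the neutrophil ligands were near 0 in these cells.

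Among the genes that induce chemokines or limit their induction, 20 of 21 in the table were tested, and edgeR called none, with 6 of the 20 at an unadjusted p under 0.05, against 9.19% of all tested genes. These 6 were Tnfrsf1a, a receptor of TNF, with a log2 fold change of 0.65, and, below 0, Tnfaip3, Relb, Nfkb2, Zfp36 and Zc3h12a. Their median log2 fold change was -0.15, with 6 above 0 and 14 below. The 3 with the highest mean were Il1r1 (227, 240 and 345 FPKM in control, 291, 372 and 435 in preeclampsia, log2 fold change 0.46, SE 0.23, adjusted p = 0.616), Rela (-0.08, SE 0.12, adjusted p = 0.884) and Il1a (-0.997, SE 0.80, adjusted p = 0.779). DESeq2 called 2 of the 20, against 1.71% of all genes, both feedback or subunit genes of NF-kB and named after their values were seen. Tnfaip3, which encodes the inhibitor A20, stood at 31.4, 33.6 and 18.2 FPKM in control and at 10.7, 13.3 and 8.74 FPKM in preeclampsia libraries (-1.32, SE 0.30, adjusted p = 0.397 by edgeR and 0.011 by DESeq2). Relb stood at 19.5, 21.8 and 19.0 FPKM in control and at 12.3, 12.1 and 8.64 FPKM in preeclampsia libraries (-0.85, SE 0.19, adjusted p = 0.395 by edgeR and 0.020 by DESeq2). Both were lower in every preeclampsia library than in any control library. Tnf did not exceed 0.12 FPKM, and Ifng, also listed, had no entry in the table.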

How the data were processed

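RNA was sequenced from 6 cultures, 3 control and 3 preeclampsia, as described above. Per the labels' protocols, mRNA was taken on oligo(dT) beads, fragmented, primed with random hexamers and ligated to adapters with unique molecular identifiers. The sources used here do not say whether reads were collapsed by them, nor the genome build. Per the submitters' processing notes, the tools included StringTie 2.1.6, HISAT2 2.2.1, FastQC and cutadapt 1.9. The authors deposited whole-number counts and FPKM of each gene in 1 table, as its headers state. Between 35.1% and 38.0% of deposited counts from 1 to 15 were multiples of 4, against 20% if evenly spread, so low counts may not be single fragments and are less certain than their size.

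After filterByExpr and TMM scaling, the counts were compared by edgeR 4.0.16 (quasi-likelihood test, R 4.3.3), with Benjamini-Hochberg adjustment over 15776 genes and a threshold of 0.05. All fold changes, SE (the log2 fold change over the root of F) and p-values are edgeR's unless another tool is named. Levels are the deposited FPKM. The spread between libraries (biological coefficient of variation 0.418), not the depth, set the precision. No 2 libraries were duplicates (smallest chi-square per degree of freedom 130). Scripts were tested on simulated data. Whether the replicate numbers pair the libraries is not stated, and the main fit did not pair them (see the closing section).

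Members with a mean FPKM of at least 10, an unadjusted p under 0.05 or groups that did not overlap are given in every library; others so given were chosen after their values were seen. The members and lists were chosen with earlier results of these data known. Lists not described above, endothelial and epithelial among them, are given in the closing section. Chromosomes were assigned by matching symbols to RefSeq. Alternatives were DESeq2 1.42.0, RLE scaling, other filters, the replicate block, limma 3.58.1 on log2(FPKM + 1) or log2(FPKM + 0.1), and leaving out libraries.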

Additional observations from a re-analysis of the deposited data

How the results depend on the processing

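By edgeR no gene and no chemokine gene was called with RLE scaling, with no filter, with a CPM of at least 1 in 3 libraries, with the replicate block, or with limma where low genes (mean FPKM under 1) were dropped. Over all genes DESeq2 called 302 and limma on log2(FPKM + 1) without a filter called 1. Leaving out each library in turn gave 0 to 2 called genes, 1 without control library 3 and 2 without preeclampsia library 1, and leaving out both, chosen after seeing the data because their macrophage markers were lowest, gave 3. DESeq2 called 1 chemokine gene, Ccl11 (log2 fold change 4.12), and every setting with a library left out called 0, with adjusted p for Ccl11 from 0.122 to 0.759. Chemokine genes with an unadjusted p under 0.05 numbered 3, with 5 by DESeq2 (8.35% of all genes), 1 by limma with either pseudocount (9.56%; the filter removes Ccl11 and Ackr4), 2 to 7 with each library left out, 7 being without preeclampsia library 1 (12.3%; 6.09% to 9.56% for the other 5), and 9 without both libraries. These 9 were Ackr3, Ackr4, Ccl4, Ccl6, Ccl11, Cxcl3, Cxcl6, Cxcl10 and Cxcl16, against 17.5% of all genes, and the smallest adjusted p was 0.0513, for Ccl6. Log2 fold changes turned negative for Ccl2 (-0.29 without control library 1, -0.43 without preeclampsia library 2; highest with 1 library out 0.65), Ccl20 (-0.38 without control library 1, -0.09 and -0.24 without preeclampsia libraries 2 and 3; 0.97 without both libraries above and at most 0.59 with 1 out) and Cxcl12 (-0.019 without control library 2; 0.51 without both and at most 0.37 with 1 out). Other members also changed sign: Cxcl10 (-1.57 without preeclampsia library 1, -0.09 without control library 3, -1.92 without both, -0.41 with the replicate block), Ccl27 (-0.16 and -0.24 without control libraries 1 and 2, -0.51 without preeclampsia library 3), Cxcl13 (up to 4.33, without control library 3), Ccl9 (0.10) and Cxcl11 (0.14) without control library 2, and Cxcl2 (0.21 without preeclampsia library 1). The cause was not tested.

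The labels do not say whether the numbers in the titles pair the libraries, and the values do not settle it. Deviations from the group means correlated at only 0.0104 to 0.0484 for libraries of the same number, and 4 of 6 libraries correlated best with their own number. The fit with the replicate block called 0 genes and 4 chemokine genes had an unadjusted p under 0.05, Cxcl1 added (7.58% of all genes). The block lowered the SE of some members (Ccl20 from 0.72 to 0.194, Cxcl3 from 0.676 to 0.313). It raised that of others (Ccl6 from 0.965 to 1.3, Cxcl6 from 1.28 to 1.57). Depth limits the members under 1 FPKM, of which 8 were not tested.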

Other observations

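Genes that process chemokines or present them on cell surfaces were all tested, 14 in number, and edgeR and DESeq2 called none. Their median log2 fold change was -0.04, and 1 had an unadjusted p under 0.05. That gene was Mmp2, a matrix metalloproteinase that cleaves Ccl7 and Cxcl12, at 721, 666 and 707 FPKM in the control group and 845, 1729 and 2159 FPKM in the preeclampsia group (log2 fold change 1.21, SE 0.35, edgeR adjusted p = 0.461). Its groups did not overlap. The heparan sulfate proteoglycan genes Sdc3 (-0.55, SE 0.25, adjusted p = 0.575) and Sdc2 (-0.55, SE 0.26, adjusted p = 0.611) were the next most abundant of the list. Sdc2 ranged from 105 to 161 FPKM in control and from 65.5 to 108 FPKM in preeclampsia libraries.

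Il1rn, the interleukin-1 receptor antagonist gene, was at 42.8, 27.8 and 7.88 FPKM in control and 154, 46.7 and 51.8 FPKM in preeclampsia libraries, without overlap (1.66, SE 0.72, adjusted p = 0.567), and was singled out after its values were seen. Summed endothelial markers lay between 0.51 and 3.71 FPKM. Summed epithelial markers lay between 3.93 and 55.0 FPKM in control and between 0.45 and 1.56 FPKM in preeclampsia libraries. Epcam was listed at 0 in 5 libraries. Of the epithelial genes, Krt8 and Krt18 were tested. EdgeR called neither (adjusted p = 0.473 and 0.441), and DESeq2 called both (adjusted p = 0.0063 and 0.024).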
